A study of Mus musculus with 7 samples.

Results

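The nuclear genes of oxidative phosphorylation were described across the cell classes of the mouse lung, beside the 13 genes of the same system that the mitochondrial genome encodes. They were taken by symbol: names that begin with Ndufa, Ndufb, Ndufc, Ndufs or Ndufv and a digit, Sdha to Sdhd, Uqcr, Cox4 to Cox8, and Atp5, without pseudogenes and Ndufaf assembly factors, and with at least 50 unique molecular identifiers (UMIs, counted RNA molecules) over all libraries. Of 87 matching features among 31253, 83 were members: 35 of complex I, 4 of complex II, 8 of complex III, 19 of complex IV and 17 of complex V. Ndufa4 and its paralog Ndufa4l2 were placed in complex IV. The rule left out Cox5b-ps and Ndufb1-ps as pseudogenes by symbol, and Cox8c and a second Atp5o entry with 0 UMIs. RefSeq (GRCm38.p6) lists Ndufb1-ps as a synonym of the protein-coding complex I gene Ndufb1, so its UMIs may belong to a functional subunit; they are in no complex I value here. The second Atp5o entry overlaps the counted Atp5o on the same chromosome, so reads of Atp5o may have been divided or discarded in counting.

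Transcripts in single cells of peripheral lung from 7 mice were counted with the 10x Genomics 3' chemistry, and each mouse gave 1 library. The 3 Smad4fl/fl mice carried floxed Smad4 without Cre and the 4 Smad4iko mice carried the same floxed alleles with Rosa26-creERT2, a tamoxifen-inducible Cre driven from a ubiquitously active locus. All 7 received 5 intraperitoneal injections of tamoxifen at 75 mg per kg between postnatal days 21 and 26, and lungs were taken at 8 weeks of age, so both groups share tamoxifen exposure and only Smad4iko carries the Cre. Libraries held 46449235 to 66557262 UMIs. After quality filters and removal of doublets 49711 cells remained, of which 45955 were gated into classes by marker genes; 3756 (7.56%) were not gated. A class name stands for cells that scored as that type by its markers, and no annotation by the authors was used. In all but the arterial endothelium and classical monocyte classes, the class ranked first of 30 for its own summed markers. The cells were gated on these same markers, so this rank is no independent check of the names. Of 49386 distinct barcodes kept, 324 occurred in more than 1 library.

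Oxidative phosphorylation passes electrons from NADH through complex I and from succinate through complex II to ubiquinone, then through complex III and cytochrome c to complex IV, where oxygen is reduced. Complexes I, III and IV pump protons across the inner mitochondrial membrane, and complex V, the ATP synthase, uses the gradient to make ATP. All subunits of complex II and most subunits of the others come from nuclear genes and are imported, while a small core set is made inside the organelle. In the lung, alveolar macrophages and the beating ciliated epithelium are known for high mitochondrial demand, and neutrophils for a reliance on glycolysis.

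The summed level of the 83 members differed more than 3-fold between classes. Ciliated cells were highest, with 2.54% ± 0.22 of all UMIs (SD, n = 6 libraries with at least 10 such cells), followed by pericytes with 2.34% ± 0.33 (n = 3), smooth muscle with 2.08% ± 0.10 (n = 5), plasma cells with 2.02% ± 0.22 (n = 5) and plasmacytoid dendritic cells with 2.01% ± 0.24 (n = 7). These 5 neighbours overlapped in their ranges over libraries. NK cells had 1.97% ± 0.17 and alveolar macrophages 1.85% ± 0.19, both over 7 libraries. T cells, with 1.58% ± 0.09, and B cells, with 1.48% ± 0.09, lay lower and varied least between mice. Neutrophils were lowest, with 0.750% ± 0.114 (n = 7), from 0.624% to 0.915% in single libraries. Basophils and mast-like cells, at 0.860% ± 0.172 (n = 3), overlapped neutrophils, whereas non-classical monocytes, the next class measured in all 7 libraries, held 1.06% to 1.71% and did not. Median depth was 3092.5 UMIs per neutrophil and 5999 per non-classical monocyte, and its part in the difference was not tested. These shares of UMIs carry no further scaling between classes. On such unscaled values the median log2 change from non-classical monocytes to neutrophils was -1.21 for the members and -1.23 for all genes tested. From T to NK cells these medians were 0.30 and 0.24. In these pairs the low and high shares are therefore not particular to the members. From cDC2 to plasmacytoid dendritic cells the medians were 0.21 for the members and 0.51 for all genes, and from cDC2 to cDC1 -0.195 and 0.02. Ciliated cells, pericytes, smooth muscle and plasma cells were not compared in this way.

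**Figure D1:**
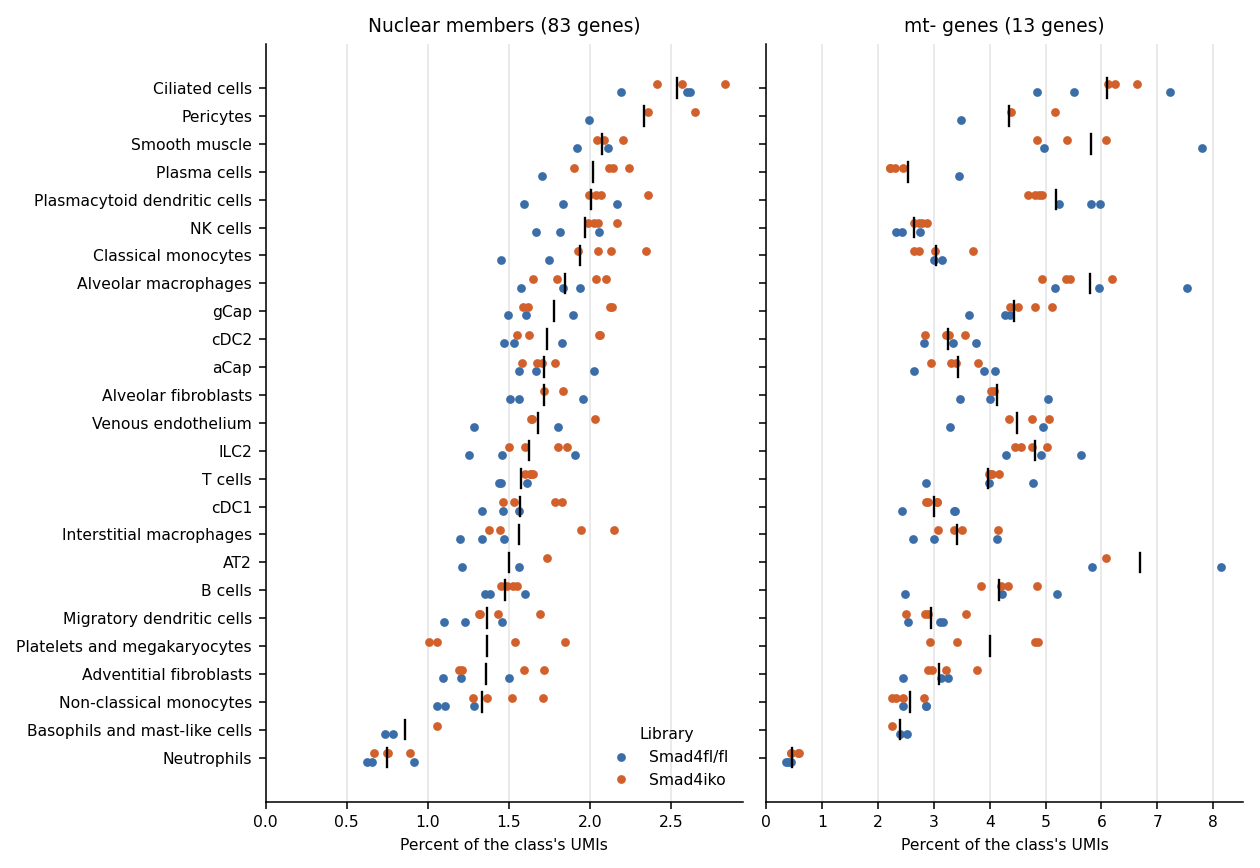
Percent of each class's UMIs from the 83 nuclear members (left) and from the 13 mitochondrially encoded genes (right); points are libraries with at least 10 cells of the class, colours are genotypes and black lines are means over libraries, for classes with at least 3 such libraries. Neutrophils lie at the bottom of both panels (mean 0.750% and 0.464%), while the highest means are those of ciliated cells on the left and of AT2 cells on the right, where the points of both classes overlap.

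The order of the mitochondrially encoded transcripts was only partly the same. AT2 cells, the surfactant-secreting alveolar epithelium, had a mean of 6.68% ± 1.28 of UMIs (SD, n = 3), from 5.82% to 8.15%, and 5.95% without Smad4fl/fl 1. Ciliated cells had 6.1% ± 0.83 (n = 6), from 4.85% to 7.22%, which overlaps the AT2 range. Smooth muscle followed with 5.82% and alveolar macrophages with 5.80%, and neutrophils had 0.464%. Over the 15 classes measured in all 7 libraries, class means of the nuclear members and of the mitochondrially encoded genes had a Pearson r of 0.741 and a Spearman rho of 0.614, and a Pearson r of 0.494 over the 14 without neutrophils. These points share libraries and a common UMI denominator, and mitochondrially encoded transcripts also entered the cell filter, which removed cells with over 20% of them. The ratio of nuclear members to mitochondrially encoded genes was 1.65 ± 0.33 in neutrophils (n = 7), 0.743 ± 0.063 in NK cells, 0.403 ± 0.060 in T cells and 0.325 ± 0.055 in alveolar macrophages. Neutrophils were the class in which nuclear transcripts outnumbered those of the organelle in every library, from 1.32 to 2.30. Every library of NK cells (0.657 to 0.846) lay above every library of T cells (0.302 to 0.506).

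Single members followed the low neutrophil level unevenly. Neutrophils had the lowest mean of 64 of the 83 members over the 15 classes, and the highest of none. These means are relative to the class total only, on which the median of all genes tested was also lower in neutrophils than in non-classical monocytes (log2 -1.23). Counts of lowest and highest means over all genes were not made, so the member counts have no background. The highest mean was in alveolar macrophages for 16 members, in aCap cells for 16, in NK cells for 13, in gCap cells for 13 and in plasmacytoid dendritic cells for 11; aCap and gCap are the 2 capillary endothelial classes. The most even member was Atp5l, the g subunit of the ATP synthase, whose class means had a coefficient of variation of 14.7%, from 386 CPM (the UMI count over the class total, scaled to 1e+06) in adventitial fibroblasts to 665 CPM in alveolar macrophages. Atp5md, another small membrane subunit of the ATP synthase, followed with 18.8%, and Cox6c with 19.6%. Among broadly expressed members the most uneven were Sdhc, a membrane anchor of complex II, with 52.9% (8.63 CPM in neutrophils, 94.4 CPM in alveolar macrophages), Ndufa5 with 49.8% (2.69 CPM in neutrophils, 153 CPM in aCap cells) and Ndufa4 with 46.7% (53.9 CPM in neutrophils, 614 CPM in NK cells). The remaining large values, 117% to 380%, belonged to Cox7a1, Cox6b2, Cox8b, Ndufa4l2, Cox4i2, Cox7b2 and Cox6a2, all isoforms with restricted expression.

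The members with the most UMIs were Cox4i1 (287210), Cox8a (236121) and Cox6c (190608) in complex IV; Atp5e (235940), Atp5l (198935) and Atp5h (171347) in complex V; Uqcrh (197886), Uqcrb (82157) and Uqcrq (78475) in complex III; Ndufa2 (97082), Ndufa13 (82413) and Ndufa7 (75833) in complex I; and Sdha (30035), Sdhb (29859) and Sdhd (25580) in complex II. Ndufb1-ps, left out by the rule, held 117864 UMIs, more than any complex I member. In 3' libraries the UMI number does not scale with transcript length, but capture can differ between transcripts, so these are numbers of captured molecules. Complex I took 0.391% ± 0.023 of T cell UMIs, complex II 0.0215% ± 0.0021, complex III 0.157% ± 0.010, complex IV 0.474% ± 0.027 and complex V 0.532% ± 0.034 (n = 7). In neutrophils the same complexes took 0.185% ± 0.032, 0.0151% ± 0.0019, 0.0554% ± 0.0092, 0.256% ± 0.034 and 0.239% ± 0.040.

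Complex IV has several subunits with a tissue-restricted second gene, and 2 of these genes marked pericytes, the contractile cells around capillaries. Cox4i2, on chromosome 2 (152754173 to 152765037, plus strand, mm10), encodes the isoform of subunit 4 known from oxygen-sensing lung and vascular cells. It made up 82.7% of Cox4i2 and Cox4i1 UMIs together in pericytes (2716 of 3286; 95% Wilson interval 81.3% to 83.9%). In the 3 libraries with at least 10 pericytes, Cox4i2 stood at 3298, 4195 and 2742 CPM, against 691, 545 and 656 CPM of Cox4i1. A UMI of Cox4i2 was found in 152 of 156 pericytes and in 26 of 12704 T cells (0.205%), a class that should lack it; median depths were 4639 and 5908.5 UMIs. Ndufa4l2 (chromosome 10, 127514967 to 127517154, plus strand), a hypoxia-inducible paralog of the complex IV subunit Ndufa4, made up 94.4% of its pair in pericytes (1160 of 1229 UMIs; 93.0% to 95.5%). Its level there was 1477, 1259 and 1030 CPM in the same libraries. Adventitial fibroblasts followed with 16.8% and smooth muscle with 12.1%. Intervals cover counting error only, and 118 of the 156 pericytes came from Smad4fl/fl 1.

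Lower shares of both genes appeared in gCap cells, and most of these UMIs lay in a small group of the cells. Cox4i2 was 9.44% of its pair (1741 of 18436 UMIs; 9.03% to 9.87%) and Ndufa4l2 was 5.32% (724 of 13608). A UMI of any of 5 pericyte markers was present in 365 of 2614 gCap cells (13.96%), and these cells held 1622 of the 1741 Cox4i2 UMIs (93.2%) and 680 of the 724 Ndufa4l2 UMIs (93.9%). In the other gCap cells Cox4i2 stood at 6.65 CPM, beside 68.9 CPM over all of them. The 280 gCap cells with Cox4i2 had a median of 19360 UMIs, and the 2334 without had 5730. All 5 markers were detected in both, with a summed 611 CPM and 13.8 CPM. A UMI of any marker was present in 64.3% of the 280 cells and in 7.93% of the 2334. In aCap cells 23 of 780 had a marker UMI, and they held 111 of the 124 Cox4i2 UMIs.

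Cox6a2 (chromosome 7, 128205435 to 128206387, minus strand), the form of subunit 6a known from heart and skeletal muscle, was the main form in plasmacytoid dendritic cells, the interferon-producing dendritic lineage. It took 74.7% of Cox6a2 and Cox6a1 UMIs (1833 of 2453; 73.0% to 76.4%) and was present in 197 of 258 cells. By library Cox6a2 stood at 279, 812 and 559 CPM in Smad4fl/fl and at 886, 723, 1017 and 887 CPM in Smad4iko, while Cox6a1 lay between 219 and 307 CPM. AT2 cells were second with 38.2% (227 of 594 UMIs; 34.4% to 42.2%), present in all 7 libraries and in 74 of 128 cells. Of 3 plasmacytoid dendritic cell markers, 1 was detected in AT2 cells, at 72.4 CPM in those with Cox6a2 and 101 CPM in those without. As a share of cells, T cells had a Cox6a2 UMI in 11 of 12704 (0.0866%), AT1 cells in 2.73% and interstitial macrophages in 4.01%, at median depths of 9495 UMIs in plasmacytoid dendritic cells, 14083.5 in AT2 cells and 5908.5 in T cells. As a share of the pair's UMIs, no other of the 30 classes exceeded 2.16%, the value in interstitial macrophages.

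Cox6b2 (chromosome 7, 4751792 to 4753094, minus strand), the form of subunit 6b known from testis, had the widest distribution of the restricted genes. It was 38.5% of Cox6b2 and Cox6b1 UMIs in alveolar fibroblasts (1831 of 4759; 37.1% to 39.9%), 19.0% in adventitial fibroblasts, 12.9% in alveolar macrophages, 11.9% in erythroid cells, 10.98% in platelets on 82 UMIs of the pair, and 10.6% in cDC2, the type 2 conventional dendritic cells. Most alveolar fibroblasts, 841 of 953, came from Smad4fl/fl 1, where the share was 40.1%; it was 23.95% and 18.2% in the other Smad4fl/fl libraries, 32.8% and 36.8% in Smad4iko 1 and 2, and 30.7% over all libraries but Smad4fl/fl 1. Alveolar macrophages held 58.7 to 91.9 normalised CPM in every library, and 2923 of 6162 of them had a UMI (47.4%). T cells had one in 143 of 12704 (1.13%), at median depths of 11962.5 and 5908.5 UMIs. Only 7.42% of the macrophages' Cox6b2 UMIs lay in cells with a UMI of an alveolar fibroblast marker, which were 7.66% of the cells. In cDC2 such cells held 30.1% of the Cox6b2 UMIs and were 26.6% of the cells. Cox7a1, the muscle form of subunit 7a, took 2.23% of its pair in alveolar macrophages (633 UMIs) and 4.04% in AT1 cells on 12 UMIs. Cox8b, the muscle form of subunit 8, reached 2.29% in alveolar fibroblasts.

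**Figure D2:**
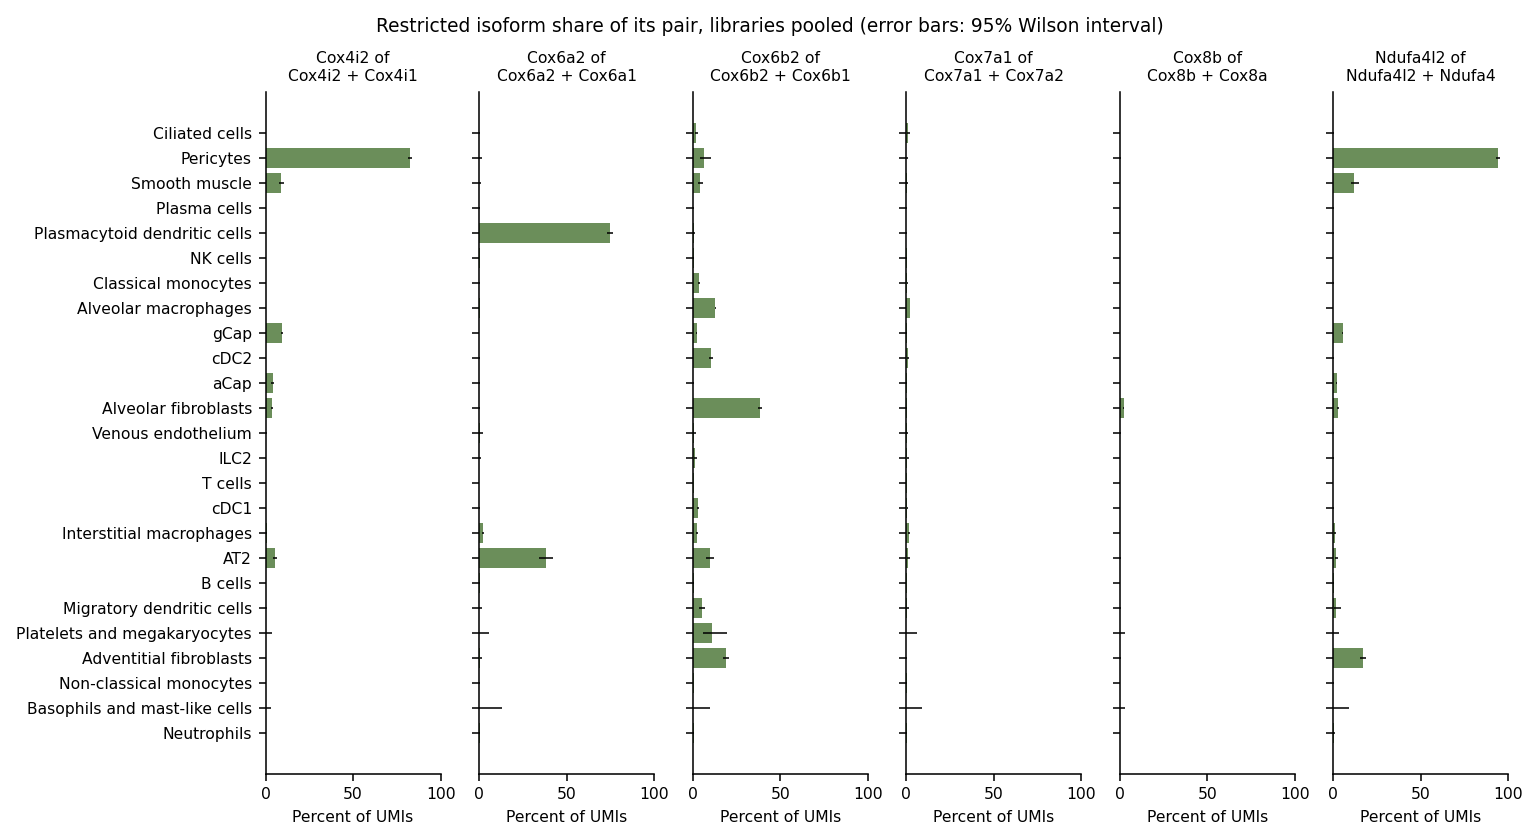
Share of the restricted isoform in the UMIs of its pair, in percent, for 6 pairs (panels) and the classes measured in at least 3 libraries (rows, ordered by summed member level); bars pool all libraries and error lines are 95% Wilson intervals. Cox4i2 (82.7%) and Ndufa4l2 (94.4%) stand out in pericytes, Cox6a2 in plasmacytoid dendritic cells (74.7%) and AT2 cells (38.2%), and Cox6b2 in alveolar fibroblasts (38.5%).

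Promoter windows of 300 bases, 250 before to 50 after the annotated start, were read from RefSeq (GRCm38.p6) for 68 of the 83 members. The motif of nuclear respiratory factor 1, a regulator of respiratory chain genes, was searched on both strands as GCGC and TGCGC separated by any 1 base, and found in 18 of 73 member windows (24.7%) and in 1512 of 32851 windows of all genes (4.60%). The ETS motif CCGGAAG, bound by the GABP factor, was in 17 member windows (23.3%) against 8.86% of all, AAGATGGC (YY1) in 10 (13.7%) against 2.75%, and the E-box core ACGTG in 18 (24.7%) against 19.6%. At least 1 of the first 3 was in 39 member windows (53.4%) and in 14.7% of all; these motifs do not contain each other. The windows of Cox6b1 and Cox6b2 are shown as a broadly expressed and a restricted form of 1 subunit, and those of Cox8a and Ndufa5 as members that lay at opposite ends in neutrophils. Each is written 5′ to 3′, with matches to the first 3 motifs in capitals. A match describes letters and no binding was measured.
Cox6b1, chr7:30626065-30626364, minus strand: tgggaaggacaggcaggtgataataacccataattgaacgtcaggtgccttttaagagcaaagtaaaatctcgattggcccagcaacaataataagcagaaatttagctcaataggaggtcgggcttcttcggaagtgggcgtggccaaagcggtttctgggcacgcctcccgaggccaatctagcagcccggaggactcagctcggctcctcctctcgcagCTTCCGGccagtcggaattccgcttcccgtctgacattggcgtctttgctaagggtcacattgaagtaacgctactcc
Cox6b2, chr7:4753045-4753344, minus strand: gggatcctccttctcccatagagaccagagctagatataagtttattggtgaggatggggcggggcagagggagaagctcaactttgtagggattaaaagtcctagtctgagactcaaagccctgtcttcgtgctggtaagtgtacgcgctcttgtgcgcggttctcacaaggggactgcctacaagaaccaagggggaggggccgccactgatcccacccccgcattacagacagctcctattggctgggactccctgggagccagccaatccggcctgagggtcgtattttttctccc
Cox8a, chr19:7217567-7217866, minus strand: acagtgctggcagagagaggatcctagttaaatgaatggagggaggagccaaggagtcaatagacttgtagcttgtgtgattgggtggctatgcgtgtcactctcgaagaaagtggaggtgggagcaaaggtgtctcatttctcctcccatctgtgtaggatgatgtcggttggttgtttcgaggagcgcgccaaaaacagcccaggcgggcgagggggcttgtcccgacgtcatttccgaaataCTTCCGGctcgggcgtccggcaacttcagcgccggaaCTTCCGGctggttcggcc
Ndufa5, chr6:24527477-24527776, minus strand: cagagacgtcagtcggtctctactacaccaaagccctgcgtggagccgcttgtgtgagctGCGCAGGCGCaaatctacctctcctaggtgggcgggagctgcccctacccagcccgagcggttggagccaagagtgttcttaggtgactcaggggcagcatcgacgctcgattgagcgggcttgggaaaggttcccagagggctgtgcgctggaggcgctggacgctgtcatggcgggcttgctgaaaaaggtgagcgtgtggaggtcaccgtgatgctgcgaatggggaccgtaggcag
The first window held 1 ETS match, the second none of the 3 motifs, the third 2 ETS matches and the fourth 1 match to the NRF1 motif.

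Related classes were then compared within each mouse, with UMIs summed per library and class and the library kept as a block in edgeR's quasi-likelihood test. Adjusted p-values are Benjamini-Hochberg values over all genes of the contrast, with a threshold of 0.05; values are normalised CPM (CPM with TMM-scaled totals), and changes are log2 ± SE over 7 mice. This scaling sets the typical gene near 0. Without it the median of all genes moved by 0.31 between alveolar and interstitial macrophages, by -1.17 between neutrophils and non-classical monocytes, by 0.25 between NK and T cells and by 0.51 between plasmacytoid dendritic cells and cDC2, so changes are relative to the typical gene and splits without the scaling are given beside them.

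**Figure D3:**
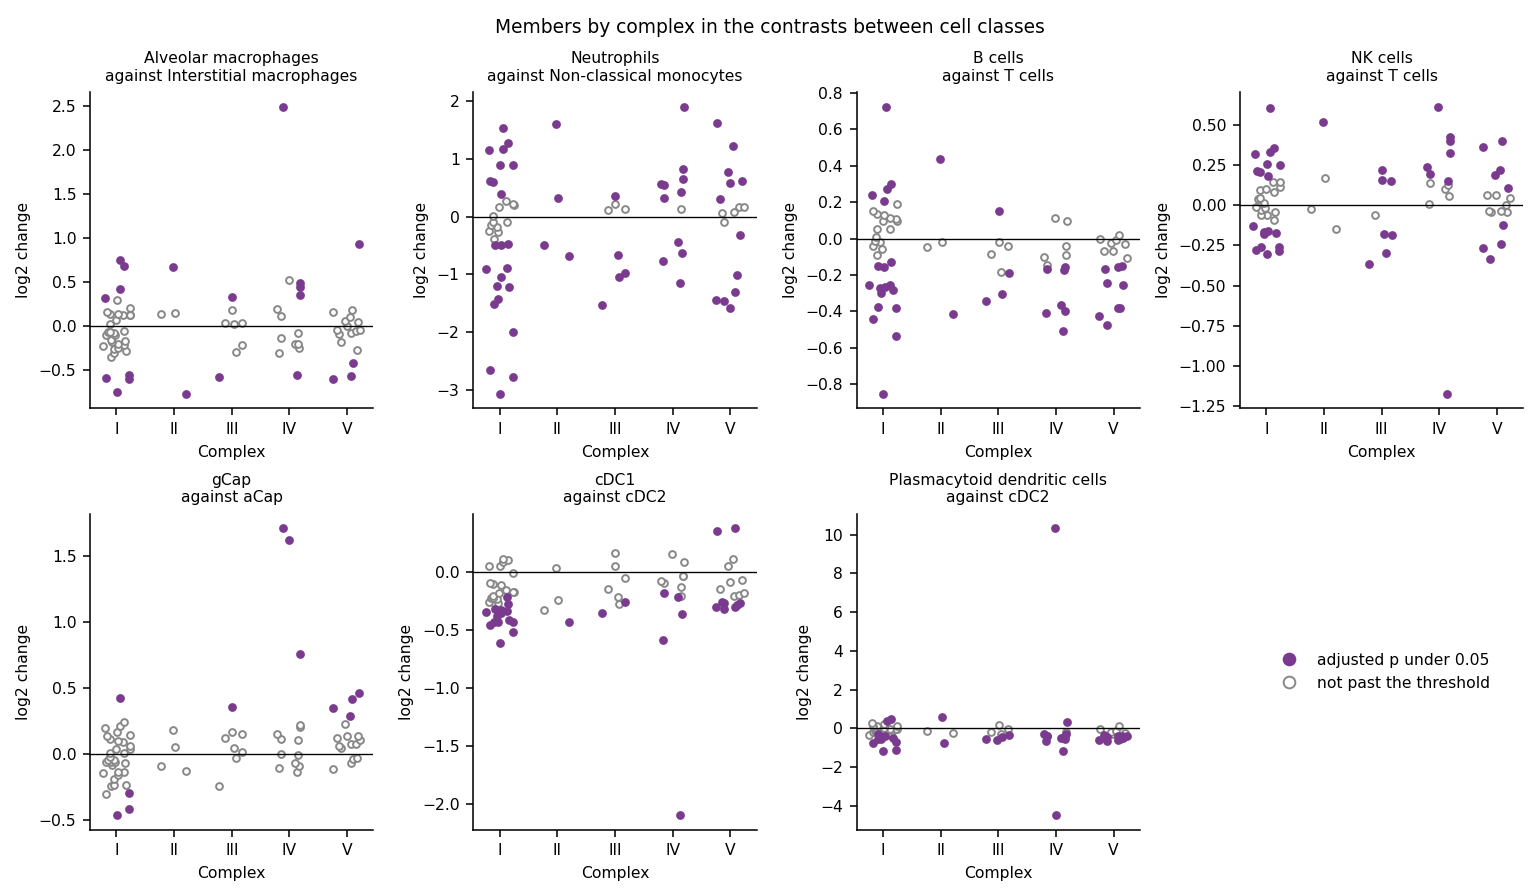
Log2 change of each tested member in the 7 contrasts between classes (panels, each with its own axis), by respiratory complex; filled points had an adjusted p under 0.05 by edgeR and open points did not. Large changes of single isoforms in complex IV (10.34 for Cox6a2, 2.50 and -2.10 for Cox6b2) stand out from members that lie mostly within 1 unit of 0, except in neutrophils. The Cox6a2 value depends on the prior count and is not a measured fold. Cox6b2 was lower by a larger change in plasmacytoid dendritic cells than in cDC2, and Cox4i2 and Ndufa4l2 were higher in gCap than in aCap cells.

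Neutrophils differed from non-classical monocytes in most members, in both directions. Of 76 tested, 25 were higher (background 36.2% of all genes tested) and 30 were lower (background 38.3%). At full depth the members' shares were thus close to those of all genes. Without TMM scaling the split was 3 higher and 66 lower, beside 1123 higher and 5153 lower of all 7448 genes tested. Complex I had 9 higher and 14 lower of 35, complex III 1 and 4 of 8, complex IV 7 and 4 of 12 and complex V 6 and 6 of 17. Ndufa5, an accessory subunit of the matrix arm of complex I, was 0 to 11.5 normalised CPM in neutrophils (median 3.45) and 22.4 to 44.8 in monocytes (median 37.0), a change of -3.07 ± 0.37 (edgeR, adjusted p = 2.6e-06). Ndufa11, a membrane-arm subunit, was 7.05 to 18.2 (median 12.96) against 39.8 to 118.8 (median 92.9), a change of -2.77 ± 0.19. Neither gene's ranges overlapped, and all 7 mice gave the same sign.

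Ndufc2 (-2.66 ± 0.23), Ndufa9 (-2.0 ± 0.24), Atp5g3, a c-ring subunit gene (-1.58 ± 0.14), Uqcrb (-1.53 ± 0.17), Ndufc1 (-1.51 ± 0.21) and Atp5o (-1.46 ± 0.14) were also lower in neutrophils of all 7 mice. In the other direction Cox8a, the ubiquitous form of subunit 8, was 861 to 1402 normalised CPM in neutrophils (median 1160) against 174 to 441 in monocytes (median 307), a change of 1.90 ± 0.15 (edgeR, adjusted p = 2.5e-08). Atp5md (1.62 ± 0.24), Sdhd, a membrane anchor of complex II (1.60 ± 0.18), Ndufa7 (1.53 ± 0.16), Ndufa3 (1.27 ± 0.14), Atp5l (1.22 ± 0.13), Ndufb9 (1.18 ± 0.14) and Ndufa8 (1.15 ± 0.15) were higher. Without the scaling Ndufa8 and Ndufb9 were -0.03 and -0.002, and the calls of Atp5l (0.04), Ndufa3 (0.09) and Atp5md (0.43) were lost. With every sum thinned to the smallest total 41 members were tested, 5 higher and 18 lower. Of all 1667 genes tested after thinning, 585 were higher and 626 lower. The median change was then -0.39 for the members and -0.07 for all genes. All 13 mitochondrially encoded genes were lower, by -0.90 to -1.94. Among 11 partner genes outside the rule 3 were higher and 7 lower, including Cyc1, cytochrome c1 of complex III (-1.90 ± 0.18). Of 16 genes of the tricarboxylic acid cycle tested, 1 was higher (Mdh2) and 11 were lower; of 28 assembly factors 14 were higher, among them the copper chaperone Cox17 (2.59 ± 0.22), and 9 were lower. The neutrophil sums held 4.60% to 21.3% S100a8 and S100a9 UMIs by library; their part in these values was not tested.

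Alveolar macrophages, the resident cells of the airspace, and interstitial macrophages, those of the tissue, differed in fewer members. Of 78 tested, 11 were higher in alveolar macrophages (background 22.2%) and 10 were lower (background 22.2%). Without TMM scaling 31 were higher and 3 lower, beside 4054 higher and 1529 lower of all 10526 genes tested. Cox6b2 led: 58.7 to 91.9 normalised CPM (median 76.4) against 1.47 to 28.8 (median 10.4), a change of 2.50 ± 0.31 (edgeR, adjusted p = 1.6e-05). Atp5g3 was 305 to 420.5 (median 330.5) against 142 to 219 (median 172), a change of 0.94 ± 0.12. In neither gene did the ranges of the classes overlap. Ndufa10 (0.75 ± 0.13), Ndufs1, the large iron-sulfur subunit of complex I (0.68 ± 0.18), Sdhc (0.67 ± 0.12), Cox5a (0.50 ± 0.13) and Ndufa3 (0.42 ± 0.12) were also higher.

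Sdhb, the iron-sulfur subunit of complex II, was lower in alveolar macrophages, at 61.9 to 74.7 normalised CPM (median 64.8) against 95.4 to 153.6 (median 109.0), a change of -0.77 ± 0.12. Its partner Sdhc changed in the opposite direction in the same mice. Ndufc2 (-0.74 ± 0.13), Ndufa7 (-0.60 ± 0.11), Atp5d (-0.60 ± 0.13), Ndufa13 (-0.59 ± 0.12), Uqcrc1 (-0.58 ± 0.12), Atp5j (-0.56 ± 0.13) and Cox8a (-0.56 ± 0.13) were lower as well. Without the scaling, Atp5d, Ndufa13, Uqcrc1, Atp5j and Cox8a kept their sign but not their call. Of the 13 mitochondrially encoded genes 11 were higher in alveolar macrophages. Among the regulators, Esrra (0.90 ± 0.19) and Ppargc1b (1.02 ± 0.32), a nuclear receptor and a coactivator of mitochondrial genes, and Tfb2m were higher and Yy1 lower, of 13 tested. Of 11 partner genes 5 were higher and 2 lower. Among the higher was Etfb, which feeds electrons from fatty acid oxidation to ubiquinone (1.11 ± 0.16).

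Between lymphocyte classes the changes were small and precise. Against T cells, B cells had 7 of 77 members higher (background 31.0%) and 34 lower (background 30.4%), all 16 calls in complexes IV and V being lower. Without TMM scaling 14 were higher and 25 lower, beside 3680 higher and 2850 lower of all 10390 genes tested. In that setting 34 instead of 21 of the 77 changes were above 0. Ndufv3, a small subunit of the NADH-binding module, was 54.8 to 90.8 normalised CPM in B cells (median 76.2) and 98.9 to 174 in T cells (median 138.6), a change of -0.86 ± 0.06 (edgeR, adjusted p = 2.5e-08). Ndufs8, an iron-sulfur subunit of complex I, went the other way with 87.2 to 106.7 (median 97.8) against 50.4 to 64.9 (median 62.2), a change of 0.72 ± 0.06. Neither gene's ranges overlapped. Lower in B cells were also Ndufa13 (-0.53 ± 0.05), Cox7a2l (-0.51 ± 0.05), Atp5mpl (-0.47 ± 0.05), Ndufa10 (-0.44 ± 0.09), Atp5j2 (-0.42 ± 0.05), Sdhc (-0.41 ± 0.10) and Ndufa4 (-0.41 ± 0.05); higher were Sdhb (0.44 ± 0.07) and Uqcrc1 (0.15 ± 0.06), the latter losing its call under 13 alternatives. Of the mitochondrially encoded genes 1 was called, mt-Nd5, higher in B cells. Of 13 regulators tested 5 were higher and 4 lower in B cells. Among the higher was Tfam, which packages and transcribes the mitochondrial genome (1.21 ± 0.07).

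NK cells, against T cells, had 25 of 77 members higher (background 29.9%) and 19 lower (background 30.7%). Without TMM scaling 57 were higher and 2 lower, beside 5054 higher and 2052 lower of all 10682 genes tested. The largest change was in Cox7a2l (chromosome 17, 83501918 to 83517330, minus strand), also known as Scaf1, which links complexes III and IV into supercomplexes. It was 189 to 309 normalised CPM in NK cells (median 237) and 451 to 640 in T cells (median 563), a change of -1.17 ± 0.06 (edgeR, adjusted p = 2.3e-10), with no overlap. Uqcrh (-0.36 ± 0.05), Atp5g2 (-0.33 ± 0.05), Ndufa9 (-0.30 ± 0.08), Uqcrfs1 (-0.30 ± 0.05), Ndufc2 (-0.29 ± 0.05), Ndufa10 (-0.28 ± 0.07) and Atp5mpl (-0.27 ± 0.05) were lower; of these, Uqcrh kept its call without the scaling and the other 6 did not. Cox8a was 647 to 1188 (median 946) against 454 to 721 (median 655), a change of 0.61 ± 0.05, and higher within each mouse although the ranges overlapped. Ndufb7 (0.61 ± 0.05), Sdhb (0.52 ± 0.06), Cox5b (0.42 ± 0.05), Cox7a2 (0.40 ± 0.05), Atp5h (0.40 ± 0.05), Atp5d (0.36 ± 0.05) and Ndufa13 (0.35 ± 0.05) were higher too. All 13 mitochondrially encoded genes were lower in NK cells, by -0.41 to -0.99. Of 48 assembly factors 10 were higher and 10 lower, and of 11 partner genes 3 were higher and 2 lower. Among these, Higd1a, a hypoxia-inducible complex IV factor, was higher by 1.27 ± 0.08, and Slc25a4, an ATP/ADP carrier, lower by -1.35 ± 0.11.

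In the capillary endothelium 9 of 78 members were higher in gCap than in aCap cells (background 20%) and 3 were lower (background 17.4%), Ndufs1, Ndufa9 and Ndufs7. Without TMM scaling 8 were higher and 8 lower, beside 1546 higher and 1714 lower of all 8577 genes tested. Without Smad4iko 3 and 4, 7 were higher and 12 lower, beside 1715 and 1493 of 8591. Cox7a2l was 262 to 370 normalised CPM in gCap (median 322) and 80.4 to 259 in aCap cells (median 195), a change of 0.76 ± 0.13 (edgeR, adjusted p = 0.00013), with no overlap. Atp5j (0.46 ± 0.12), Ndufa8 (0.43 ± 0.12), Uqcrh (0.36 ± 0.09) and Atp5a1, the alpha subunit of the ATP synthase (0.29 ± 0.09), were higher in all 7 mice; the Atp5a1 call was lost without Smad4fl/fl 1 and the Ndufa8 call without Smad4iko 3 and 4. Cox4i2 (1.72 ± 0.46) and Ndufa4l2 (1.62 ± 0.47) were also called, in 6 of 7 mice each, and the cells with pericyte markers described above held 93.2% and 93.9% of their gCap UMIs. Of the 13 mitochondrially encoded genes 11 were higher in gCap cells. Ucp2, an inner-membrane carrier, was higher by 0.90 ± 0.11.

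Most called members were lower in cDC1, the cross-presenting dendritic type, than in cDC2. In cDC1 2 of 77 were higher (background 16.6%), Atp5md (0.37 ± 0.07) and Atp5g3 (0.35 ± 0.09), and 30 were lower (background 17.9%). Without TMM scaling these counts were 2 and 26, beside 1073 higher and 1017 lower of all 6027 genes tested. The median member changed by -0.22, beside 0.00 for the median of all genes. DESeq2 called 10 members lower. Cox6b2 was 6.07 to 21.4 normalised CPM in cDC1 (median 10.4) against 36.3 to 60.7 in cDC2 (median 50.4), a change of -2.10 ± 0.20 (edgeR, adjusted p = 6.5e-07). The ranges did not overlap, and those of Cox5a (-0.59 ± 0.10) and Ndufa11 (-0.43 ± 0.11) did not either. Ndufa1 (-0.61 ± 0.09), Ndufb6 (-0.46 ± 0.12), Ndufb8 (-0.43 ± 0.09) and Ndufb3 (-0.43 ± 0.09), all of complex I, were lower within every mouse. DESeq2 lost the calls of Ndufb6 and Ndufa11. Etfb was lower by -0.88 ± 0.10 and Ucp2 higher by 0.63 ± 0.07.

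Plasmacytoid dendritic cells, a contrast added after the data were seen, had 5 of 77 members higher than cDC2 (background 26.7%) and 37 lower (background 29.7%). Without TMM scaling 30 were higher and 4 lower, beside 2601 higher and 852 lower of all 5021 genes tested. Their summed member level, 2.01% of UMIs, was above the 1.73% of cDC2. Cox6a2 was 221 to 887 normalised CPM (median 703) and at most 1.03 in cDC2, where 1 UMI was counted in all 7 libraries; the fitted change of 10.34 ± 0.30 therefore depends on the prior count and is not a measured fold. Cox6b2 was 0 to 9.33 (median 2.24) against 43.0 to 72.4 (median 59.5), a change of -4.49 ± 0.40 (edgeR, adjusted p = 2.6e-07) with 7 UMIs in plasmacytoid dendritic cells. Cox7a2l (-1.16 ± 0.14), Ndufa6 (-1.14 ± 0.14), Ndufc2 (-1.10 ± 0.13), Ndufb8 (-0.76 ± 0.12), Sdhd (-0.73 ± 0.22), Ndufb5 (-0.72 ± 0.14) and Cox6b1 (-0.66 ± 0.11) were lower, without overlap between the classes. Ndufb8, Sdhd, Ndufb5 and Cox6b1 lost their calls without the scaling. Sdhb (0.57 ± 0.13), Ndufs3 (0.48 ± 0.16) and Ndufa4 (0.34 ± 0.11) were higher; the last 2 were not called by DESeq2. This contrast and the preceding one share the cDC2 sums.

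The genotype comparison asked whether the members' levels differed between Smad4fl/fl and Smad4iko mice within a class. Smad4, the targeted gene, averaged lower in Smad4iko in 10 of 10 tested classes and did not overlap in 7. In T cells it was 126 ± 8 normalised CPM in Smad4fl/fl and 75.2 ± 9.0 in Smad4iko (SD, n = 3 and 4), a log2 change of -0.75 ± 0.13 (edgeR, adjusted p = 0.072). Whether the counted 3' tags of Smad4 lie outside the deleted part is not given in the sources used here.

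No member was called in any of the 10 classes tested, those that reached 30 cells in each mouse. Over 772 tests of members 0 passed edgeR's adjusted threshold, and 28 of 84718 tests of all genes did (background 0.0331%); DESeq2 called 0 members as well. At an unadjusted p under 0.05, 36 members were higher (background 3.65% of all tests) and 3 were lower in Smad4iko (background 3.12%), which are 4.66% and 0.389% of the members' tests. The first count depended on single mice: it was 138 without Smad4fl/fl 2 and 58 without Smad4iko 1, but 15 without Smad4fl/fl 1 or Smad4iko 4, 10 without Smad4iko 3 and 8 without Smad4fl/fl 3. Above 0 were 615 of the 772 log2 changes (79.7%, beside 50.8% of all genes' changes). This share was 61.4% with Smad4iko 1 and 2 as the only Smad4iko mice and 62.3% with a covariate for Smad4iko 3 and 4. The classes differed in the first of these settings. In T cells 67 of 78 members stayed above 0, in B cells 67 of 76 and in NK cells 67 of 77. In gCap cells 17 of 79 did, instead of 63, and in alveolar macrophages 22 of 80, instead of 51 of 79. The other classes lay between these. Members tested in 1 class share the same 7 mice and move together, so these shares carry no test.

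Interstitial macrophages had the largest summed difference of the 10 classes. The class was small and uneven, with 71, 80 and 40 cells in Smad4fl/fl and 32, 64, 48 and 264 in Smad4iko. The members took 1.202%, 1.47% and 1.34% of UMIs in Smad4fl/fl and 1.38%, 1.45%, 2.15% and 1.95% in Smad4iko; Smad4iko 3 and 4 were high, the other 2 Smad4iko mice lay among the controls, and the groups overlapped. Of 77 members 76 were above 0 (background 50.1%) with a median log2 change of 0.39, and 14 had an unadjusted p under 0.05 (background 2.62%). Ndufb7 was 100.6, 158.4 and 97.8 normalised CPM in Smad4fl/fl and 217, 193, 218 and 209 in Smad4iko, a change of 0.81 ± 0.23 (edgeR, adjusted p = 0.90). Atp5k was 72.1, 141.7 and 83.8 against 175, 145, 283 and 251, a change of 1.10 ± 0.32 (edgeR, adjusted p = 0.90). Neither gene's groups overlapped, yet both failed the adjustment over all genes of the class.

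Other classes showed the same 2 mice high without a shift of the rest. The gCap sums were 1.49%, 1.90% and 1.61% in Smad4fl/fl and 1.62%, 1.59%, 2.13% and 2.12% in Smad4iko. In cDC2 they were 1.53%, 1.83% and 1.47% against 1.62%, 1.55%, 2.06% and 2.06%. T cells differed from this pattern, with 1.45%, 1.61% and 1.44% against 1.63%, 1.64%, 1.65% and 1.60%; here 1 control lay among the Smad4iko values. In aCap cells the Smad4iko mean was lower, 1.69% ± 0.08 against 1.75% ± 0.24, and 26 of 76 members were above 0. The summed log2 ratio was 0.37 in interstitial macrophages, from 0.06 to 0.19 in 8 further classes and -0.06 in aCap cells. Leaving out 1 mouse turned the neutrophil ratio negative without Smad4fl/fl 1 (-0.01), Smad4fl/fl 3 (-0.04) or Smad4iko 4 (-0.02), and the aCap ratio positive without Smad4fl/fl 2 (0.06).

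**Figure D4:**
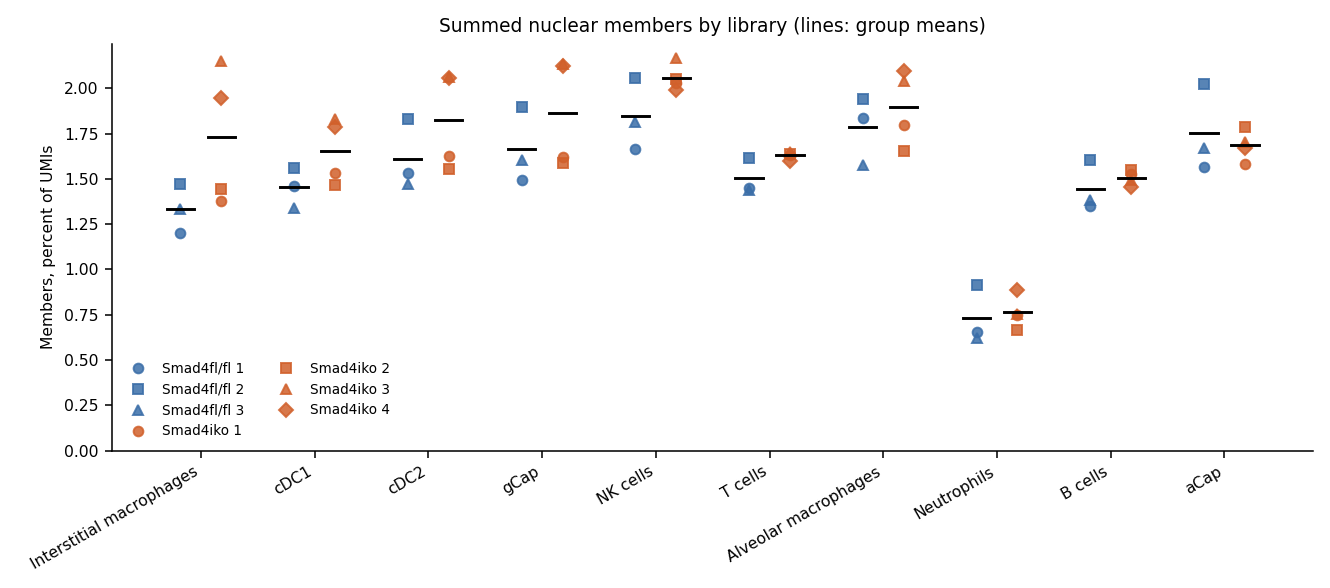
Summed level of the 83 members, in percent of UMIs, in each library (symbols; blue Smad4fl/fl, orange Smad4iko) for the 10 tested classes, ordered by the log2 ratio of the group means (black lines). Smad4iko 3 and 4 are the highest values in interstitial macrophages (2.15% and 1.95%), gCap cells, cDC1, cDC2 and alveolar macrophages, and the groups overlap in every class.

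The groups of mice did not overlap for 51 of the 772 tests of members with every Smad4iko value above every control (6.61%, background 4.15% of all genes' tests) and for 7 with every one below (0.907%, background 3.61%). Interstitial macrophages held 19 of the 51, of 77 members tested (background 3.63%). Ndufa6, a complex I subunit of the LYR family, was 123, 153.7 and 134.8 normalised CPM in Smad4fl/fl B cells and 170.9, 169, 230 and 216 in Smad4iko, a change of 0.51 ± 0.16 (edgeR, adjusted p = 0.71). In NK cells it was 140, 189.6 and 175 against 229, 213, 258 and 266, a change of 0.51 ± 0.15 (edgeR, adjusted p = 0.61). Every Smad4iko value lay above every control in both classes. Ndufv1, the NADH-binding subunit, was 27.5, 26.9 and 27.9 against 43.6, 42.0, 39.2 and 38.4 in B cells, a change of 0.57 ± 0.15 (edgeR, adjusted p = 0.60). In T cells Cox7a1 was 0.123, 0.630 and 0.353 against 1.74, 1.34, 1.42 and 2.05 on 90 UMIs in all, a change of 2.07 ± 0.47 (edgeR, adjusted p = 0.23). Ndufa5 in neutrophils, on 70 UMIs, was 0, 1.42 and 0 against 2.27, 3.84, 2.97 and 7.75; its adjusted p was 0.40 by edgeR and 0.016 with no filter on low counts, the call of a member that any alternative gave.

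The other lists gave no genotype calls either. None of the 13 mitochondrially encoded genes, 11 partners, 49 assembly factors, 17 genes of the tricarboxylic acid cycle and 14 regulators passed the adjusted threshold of edgeR in any of the 10 classes. Over their 874 tests 34 were higher (3.89%, background 3.65%) and 10 lower (1.14%, background 3.12%) at an unadjusted p under 0.05 by edgeR, and DESeq2 also called 0. In neutrophils the mitochondrially encoded genes summed to 0.361%, 0.399% and 0.439% of UMIs in Smad4fl/fl and to 0.449%, 0.448%, 0.572% and 0.580% in Smad4iko, with no overlap. The S100a8 and S100a9 share in the same sums was 4.60%, 10.6% and 9.96% against 15.6%, 21.3%, 20.9% and 18.9%, and its part in that difference was not tested. Plasmacytoid dendritic cells went the other way without overlap, with 5.81%, 5.24% and 5.97% in Smad4fl/fl and 4.81%, 4.94%, 4.69% and 4.89% in Smad4iko. For this sum the groups overlapped in every other class compared by genotype, the added classes below included, and no test was made of it. In 4 classes added with a minimum of 15 cells per mouse, edgeR and DESeq2 each called 0 members; at an unadjusted p under 0.05 edgeR gave 17 higher (5.67%, background 2.52%) and 0 lower (background 2.46%) of 300 tests. Non-classical monocytes among them had 12 of 76 members higher at an unadjusted p under 0.05 by edgeR (15.8%, background 3.83%). Their sums were 1.06%, 1.29% and 1.10% in Smad4fl/fl against 1.28%, 1.36%, 1.71% and 1.52% in Smad4iko. The groups overlapped, Smad4iko 3 and 4 were again the highest, and Smad4fl/fl 1 held 29 of these cells.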

How the data were processed

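The authors deposited, for each of the 7 libraries, a sparse matrix of UMI counts per gene and barcode, with no normalization, written by Cell Ranger 6.1.1 per the file headers; the submitters' processing notes name fastp, UMI-tools and the build mm10 without their roles. Positions come from GENCODE M21 (mm10). The labels give 1 library per mouse, so p-values rest on the spread between 3 and 4 mice.

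Cells had at least 300 genes, 600 UMIs and at most 20% mitochondrially encoded UMIs (50955 of 55671 barcodes); scrublet in scanpy 1.11.5, with an expected rate of 6%, removed 1244 doublets (2.44%). A cell was gated to the class with the highest marker score (at least 0.25, a margin of 0.1 and 3 markers detected). UMIs were summed per library and class. Levels are percent of UMIs or CPM of these sums in libraries with at least 10 cells, with mt- genes in the denominator. Tests used edgeR 4.0.16 (filterByExpr, TMM, glmQLFTest, Benjamini-Hochberg over all genes of the class, threshold 0.05), with no covariate for genotype and with the library as a block between classes. A class was tested by genotype with 30 cells in every library; 4 classes with 15, and the contrast of plasmacytoid dendritic cells, were added after seeing the data. Non-classical monocytes entered their contrast by the lower minimum. The fits were tested on simulated data.

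The text names, per contrast, up to 8 members in each direction with the largest change among those past the threshold with 1 sign in all 7 mice, the isoform pairs, the 3 members of each complex with most UMIs, and members called by genotype. One gene that the rule names is not reported here. Members with the smallest unadjusted genotype p, those singled out for levels or evenness, Ndufs1, Ndufa9, Ndufs7, Cox4i2 and Ndufa4l2 in the endothelial contrast, and Atp5g3 in cDC1 were chosen after their values were seen, as were the named genes of other lists. The members and lists were chosen with earlier results of these data known. Alternatives covered scaling, DESeq2 1.42.0, filters on genes and cells, blocks, thinning and leaving out mice.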

Additional observations from a re-analysis of the deposited data

Results flagged for a closer look

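In neutrophils the complex III sum of Smad4iko 4 was 0.0708% of UMIs, far from the other 3 Smad4iko mice at 0.0553% to 0.0562%. In T cells the complex IV sum of Smad4iko 4 was 0.481%, below the others at 0.494% to 0.496%, a small gap in absolute terms. These were 2 of 70 groups of 4 mice checked, and chance flags about 1 in 20 such groups. Outside the members, 117864 UMIs were counted for Ndufb1-ps, which the symbol marks as a pseudogene and RefSeq lists as a synonym of the protein-coding Ndufb1, and 72 for Cox5b-ps. Ndufb1-ps was broad, from 206 ± 86 CPM in adventitial fibroblasts to 480 ± 130 CPM in alveolar macrophages (SD, n = 7).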

How the results depend on the processing

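Of the gene-level changes between classes, 1452 of the recomputed values kept sign and call, 67 lost the call and 2 reversed, Ndufa8 (-0.0258) and Ndufb9 (-0.00198) in neutrophils with no TMM scaling; with that setting the reference moves by construction, and elsewhere the cause was not tested. With no TMM scaling the members higher and lower were 31 and 3 in alveolar against interstitial macrophages, 3 and 66 in neutrophils against non-classical monocytes, 57 and 2 in NK against T cells and 30 and 4 in plasmacytoid dendritic cells against cDC2; 14 were higher in B against T cells and 8 lower in gCap against aCap cells. The counts of all genes in that setting are given with each contrast above. Thinning gave 7 higher in alveolar macrophages, 5 higher and 18 lower in neutrophils, 9 lower in NK cells and 0 lower in gCap cells. Of all genes tested after thinning, 1039 of 4518 were higher in alveolar macrophages. In neutrophils 585 were higher and 626 lower of 1667. In NK cells 1683 of 6773 were lower, and in gCap cells 756 of 4672. Without the library block 3 were higher and 17 lower in B cells, 10 higher and 6 lower in NK cells, and 0 higher and 12 lower in cDC1. DESeq2 gave 4 higher in B cells, 1 lower in gCap cells, 10 lower in cDC1 and 2 higher in plasmacytoid dendritic cells; no filter gave 3 higher in B cells, 8 lower in cDC1 and 2 higher in plasmacytoid dendritic cells; RLE scaling gave 4 higher in B cells. Without Smad4iko 3 and 4, 11 were higher in B cells and 12 lower in gCap cells. Leaving out 1 mouse gave 7 to 11 higher in alveolar macrophages (7 without Smad4fl/fl 1, Smad4fl/fl 2 or Smad4iko 1), 4 to 9 higher in B cells (4 without Smad4iko 2), 2 to 8 lower in gCap cells (8 without Smad4iko 3, 6 without Smad4iko 4) and 2 to 5 higher in plasmacytoid dendritic cells (3 without Smad4fl/fl 2, 2 without Smad4iko 1).

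For genotype, member calls stayed at 0 in all alternatives except no filter, with 1. Calls over all genes, 28, became 18 with no TMM scaling, 285 with DESeq2, 786 with no filter, 51 with the covariate, 49 with Smad4iko 1 and 2 only, 8 with clusters in place of gates (8 of the 10 classes could be formed) and 7 to 40 with 1 mouse left out (10 without Smad4fl/fl 1, 7 without Smad4fl/fl 2, 14 without Smad4iko 3, 11 without Smad4iko 4). By the rule that every number must correlate over 0.1, replicate numbers did not pair the mice: those numbered 1 did so in 10 of 10 classes, those numbered 3 in 9 and those numbered 2 in 0. The replicate block gave 60 calls and 0 members, and 16 in place of 36 members higher at an unadjusted p under 0.05. With no TMM scaling the median of all genes in B cells moved by -0.11, and 46 of 76 members were above 0 there instead of 68. With Smad4iko 1 and 2 only, the summed log2 ratio became 0.0788 in interstitial macrophages, -0.0211 in cDC2 and -0.0542 in gCap cells; the other 117 recomputed ratios moved by less than 1 SD. Depth limits the low members: Cox7a1 in T cells and Ndufa5 in neutrophils rest on 90 and 70 UMIs.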
